A study of Mus musculus with 8 samples.

Results

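Oxidative phosphorylation runs in the inner mitochondrial membrane. Complexes I to IV pass electrons from NADH and succinate to oxygen and complexes I, III and IV pump protons, whose return through complex V, the ATP synthase, drives ATP synthesis. Most subunits are encoded in the nucleus, while 13 mRNAs of the mitochondrial DNA encode core subunits of every complex except complex II. Cardiomyocytes depend on this pathway after birth, whereas the early embryonic heart relies largely on glycolysis.

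The genes described here are the subunit genes of these complexes, taken by symbol from a table of expected counts with 53465 rows (*Nduf*, *Sdh*, *Uqcr*, *Cox4* to *Cox8*, *Atp5* and the *mt-Nd*, *mt-Cytb*, *mt-Co* and *mt-Atp* genes). Of 109 symbols that matched, 8 pseudogenes with the suffix -ps were left out and 5 genes did not reach 10 counts in at least 4 of the 8 samples, which left 96 genes. They are 83 nuclear genes, with 38 of complex I, 4 of complex II, 8 of complex III, 16 of complex IV and 17 of complex V, and 13 mitochondrial genes, with 7 of complex I, 1 of complex III, 3 of complex IV and 2 of complex V. The 5 genes below the minimum were *Cox8c*, *Cox7b2*, *Cox6c2*, *Ndufa11b* and *Ndufs6b*, with at most 5.24 counts in any sample. The lowest gene above it was *Cox8b*, with 16 to 32 counts. All 96 passed the filter of the test. The symbol rule does not take *Cyc1* of complex III or *Ndufab1* of complex I, it takes *Ndufb4c*, which the annotation calls a processed pseudogene, and it counts *Ndufa4*, whose protein is now placed in complex IV, under complex I.

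The series measured polyadenylated RNA of mouse heart ventricles at embryonic day 9.5, in 60-base single reads. It holds 4 samples with *Nrg1*, the neuregulin-1 gene, deleted by Tie2-Cre (genotype Nrg-1flox;Tie2-Cre, labelled KO_1 to KO_4) and 4 control samples (labelled WT_1 to WT_4). Tie2-Cre is active in endothelial cells, including the endocardium, and also in blood lineages, so the recombined cells are not the cardiomyocytes. The labels give no strain, do not say whether the WT embryos carried a floxed allele or Cre, and do not say how many embryos a sample holds, so p-values measure the spread between these samples only.

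Total counts ranged from 11852372 to 14360323. *Nrg1* counts were 61, 59, 71 and 72 in KO and 156, 131, 121 and 173 in WT, lower in each KO sample than in each WT sample. KO_1 stood apart from the other KO samples, with a chi-square over degrees of freedom of 30.3 to 52.6 against them, while the other pairs within a genotype gave 3.74 to 14.41. All 10 erythroid marker genes were higher in KO, with a summed level of 68970, 19860, 40210 and 41280 CPM in KO_1 to KO_4 and 6701 to 8131 CPM in WT. CPM values are counts scaled to library size after trimmed-mean (TMM) normalization. The 12 cardiomyocyte markers were all detected, their summed level was 36000 to 39100 CPM in KO and 37750 to 39980 CPM in WT, and 0 of 12 passed edgeR's quasi-likelihood test (2 at an unadjusted p under 0.05 and 2 with DESeq2). Without KO_1, 3 of 12 passed, 2 higher and 1 lower, against 17.2% of the 14630 genes then tested. Over all 8 samples 8.62% of 14451 genes passed, 3607 had an unadjusted p under 0.05 and DESeq2 called 12.2%. Of 8 endothelial markers 1 passed and was lower (*Tek*), 7 had a negative log2 fold change and 5 an unadjusted p under 0.05, and the summed level was 581 to 661 CPM in KO and 694 to 775 CPM in WT, without overlap. Without KO_1, 2 of the 8 passed, since *Kdr* was also lower (log2 fold change -0.51, adjusted p = 0.00162 by edgeR's test). Of 6 epicardial markers 2 passed and were higher (*Wt1* and *Tbx18*), all 6 had a positive log2 fold change and 4 an unadjusted p under 0.05, and the sum was 198 to 331 CPM in KO and 128 to 195 CPM in WT, also without overlap. The 1 macrophage marker of 6 with enough counts to be tested, *Csf1r*, was higher (log2 fold change 1.08, adjusted p = 0.00657 by edgeR's test). Of 12 hypoxia and stress genes 3 passed and were higher (*Mt1*, *Mt2* and *Slc2a1*), all 12 had a positive log2 fold change and 7 an unadjusted p under 0.05. Their summed level was 8351 CPM in KO_1, 5083 to 5330 CPM in the other KO samples and 4309 to 5046 CPM in WT, without overlap, and their median log2 fold change was 1.01, or 0.26 without KO_1. The largest part of this sum was *Ldha*, at 2663 to 2839 CPM in KO and 2515 to 2902 CPM in WT. *Slc2a1* was next, at 1534 to 2140 CPM in KO and 1124 to 1334 CPM in WT. Without KO_1, 3 of the 6 epicardial and 4 of the 12 hypoxia and stress genes passed. In bulk tissue, fewer cells of a type cannot be told apart from less RNA per cell.

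Few of the subunit genes passed the test, and most differed by little between genotypes. At an FDR under 0.05, 4 of 96 subunit genes (4.17%) passed edgeR's quasi-likelihood test, with p-values adjusted by Benjamini-Hochberg across the table, against 8.62% of the 14451 genes tested. *Cox6b2* was higher in KO, where 5.11% of all genes were higher, and *Cox5a*, *Ndufc1* and *mt-Nd3* were lower, where 3.5% were lower. The median log2 fold change was -0.029 over the 96 genes and -0.0014 over all genes tested, and without KO_1 it was 0.019 over the 96 genes. For 87 genes the log2 fold change was smaller than 0.25 in size and for 54 it was smaller than 0.1. The median size of the log2 fold change was 0.081 over the 96 genes and 0.148 over all genes tested. An unadjusted p under 0.05 was reached by 21 of the 96 genes, against 3607 of 14451 over all genes. The 95% interval of the fold change, from the SE and the degrees of freedom of edgeR's test, lay within 1.5-fold in either direction for 90 genes. The values of KO and WT did not overlap for 6 of 96 genes, against 19% of all genes tested. These were *Cox6b2* and *Ndufa7*, higher in KO, and *Cox5a*, *Ndufc1*, *Ndufb6* and *Atp5s*, lower in KO.

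**Figure D1:**
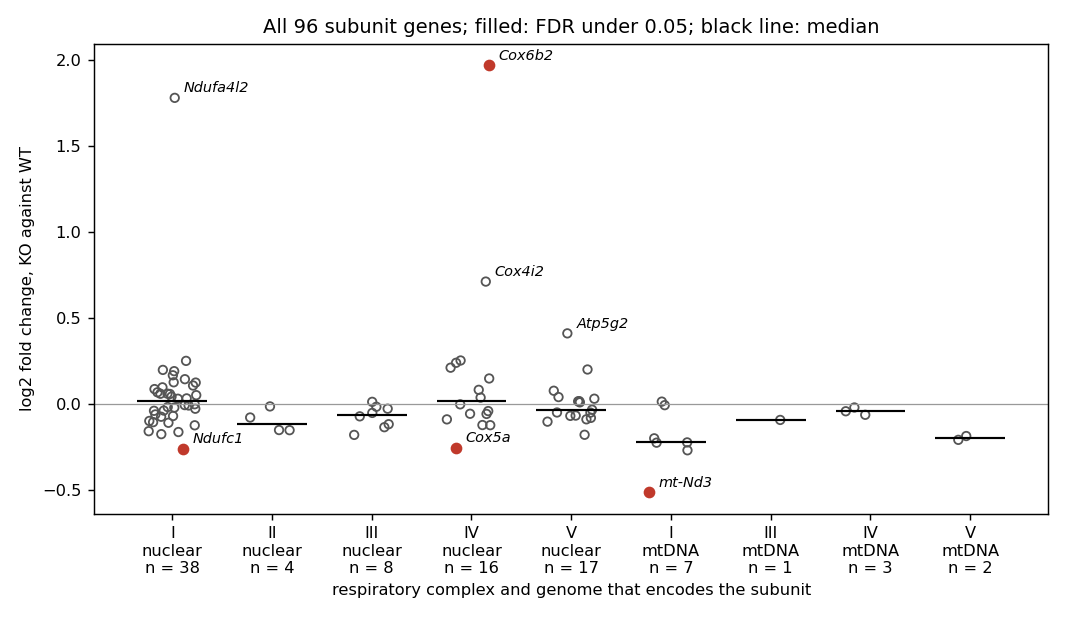
Log2 fold change of KO against WT (y axis) for each of the 96 subunit genes, grouped by complex and by the genome that encodes them (x axis), with filled points at an FDR under 0.05 and a line at each group's median. Most points lie within 0.25 of zero, and *Cox6b2*, *Ndufa4l2*, *Cox4i2* and *mt-Nd3* are the 4 genes past 0.5 in size.

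By complex, the nuclear genes showed medians between -0.12 and 0.02, and their counts of genes that passed stand beside 8.62% of all genes tested. In complex I, 1 of 38 passed (*Ndufc1*, lower), and the median log2 fold change was 0.013. In complex II, 0 of 4 passed, all 4 log2 fold changes were negative, from -0.15 for *Sdhc* and *Sdhd* to -0.02 for *Sdha*, and the median was -0.12. In complex III, 0 of 8 passed, 7 of 8 were negative, the lowest being *Uqcrh* at -0.18, and the median was -0.06. In complex IV, 2 of 16 passed (*Cox6b2* higher and *Cox5a* lower), and the median was 0.02. In complex V, 0 of 17 passed, and the median was -0.03. At an unadjusted p under 0.05, complexes II, III and V held 1, 3 and 1 genes, against 3607 of 14451 over all genes. DESeq2 called 0, 0 and 1 genes of these complexes, against 12.2% of all genes. Without KO_1 the medians were 0.03, -0.05, -0.04, 0.07 and 0.02 for complexes I to V, so that of complex V turned sign, and in complex III 5 of 8 genes were negative.

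Among the subunit genes as chosen here, which leave *Cyc1* to the electron carriers, the most highly counted nuclear gene of each complex had nearly the same level in both genotypes. *Atp5b*, the catalytic beta subunit of the ATP synthase, was at 2671 ± 60.6 CPM in KO and 2645 ± 130.3 CPM in WT (SD, n = 4). *Sdha*, the flavoprotein of succinate dehydrogenase, was at 451 ± 28.8 and 456 ± 33.3 CPM. *Cox4i1*, the ubiquitous subunit 4 of cytochrome c oxidase, was at 453 ± 27.7 and 442 ± 12.8 CPM. *Uqcrc2*, a core protein of complex III, was at 312 ± 16 and 324 ± 14.9 CPM. *Ndufs1*, the largest iron-sulfur subunit of complex I, was at 270 ± 11.7 and 285 ± 13.3 CPM. The 95% interval of the fold change was 0.934 to 1.09 for *Atp5b*, 0.890 to 1.099 for *Sdha*, 0.940 to 1.12 for *Cox4i1*, 0.883 to 1.05 for *Uqcrc2* and 0.872 to 1.03 for *Ndufs1*.

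*Cox6b2* carried the largest change among the subunits. It encodes the isoform of subunit 6B that is known from testis, and *Cox6b1* encodes the ubiquitous isoform. *Cox6b2* is on the minus strand of chromosome 7 (chr7:4751792-4753094, GRCm38) and *Cox6b1* on the same strand of the same chromosome (chr7:30616861-30626151). The 250 bases before the RefSeq start (GRCm38.p6) of each are shown 5′ to 3′ on the gene's strand, chr7:4753095-4753344 for *Cox6b2* and chr7:30626115-30626364 for *Cox6b1*, because this pair differed most. Capitals mark the CCAAT box, the letters GGGGCGG of SP1 and the letters CCGGAAG of ETS factors, on either strand.
Cox6b2: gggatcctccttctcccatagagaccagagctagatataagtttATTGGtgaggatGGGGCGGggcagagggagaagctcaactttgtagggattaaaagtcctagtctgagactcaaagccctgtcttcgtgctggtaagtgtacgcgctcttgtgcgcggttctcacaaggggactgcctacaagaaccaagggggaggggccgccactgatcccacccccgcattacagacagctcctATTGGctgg
Cox6b1: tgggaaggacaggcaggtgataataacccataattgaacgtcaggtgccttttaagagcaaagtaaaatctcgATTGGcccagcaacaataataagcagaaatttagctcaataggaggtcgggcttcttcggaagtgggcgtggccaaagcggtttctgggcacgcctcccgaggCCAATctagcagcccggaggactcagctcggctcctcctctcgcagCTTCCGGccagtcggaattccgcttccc
The *Cox6b2* window held CCAAT at 2 places and GGGGCGG, and the *Cox6b1* window held CCAAT at 2 places and CCGGAAG. A match describes letters only.

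Counts of *Cox6b2* were 331, 148, 258 and 280 in KO_1 to KO_4 and 68, 69, 67 and 72 in WT_1 to WT_4. Its level was 28.1, 10.7, 18.6 and 23.1 CPM in KO and 5.19, 4.94, 5.51 and 4.87 CPM in WT, so every KO sample lay above every WT sample and the KO samples spread over a wider range. This was a log2 fold change of 1.97 (SE 0.26, adjusted p = 0.00268 by edgeR's test), a 3.91-fold higher level with a 95% interval of 2.62 to 5.83. It was 1.76 without KO_1 (adjusted p = 0.000912) and it passed the test with each of the 8 samples left out in turn. No 60-base stretch of its transcript occurs in the transcripts of another gene. *Cox6b1* was at 239, 326, 299 and 320 CPM in KO and 255 to 275 CPM in WT, and these ranges overlapped because KO_1 was lowest of all 8 samples. Its log2 difference was 0.15 (SE 0.091, adjusted p = 0.352). In reads per kilobase, which allow levels of different genes to be compared, *Cox6b2* made up 13.5%, 4.19%, 7.62% and 8.75% of subunit 6B in KO and 2.30% to 2.79% in WT.

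The order of the KO samples by *Cox6b2* was also their order by the erythroid sum, with KO_1 highest, KO_4 and KO_3 next and KO_2 lowest, and the erythroid sum, like *Cox6b2*, did not overlap between genotypes. Among the WT samples the order was not shared, since WT_2 had the highest erythroid sum and WT_3 the highest *Cox6b2* level. The part of blood in the *Cox6b2* result was not tested.

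**Figure D2:**
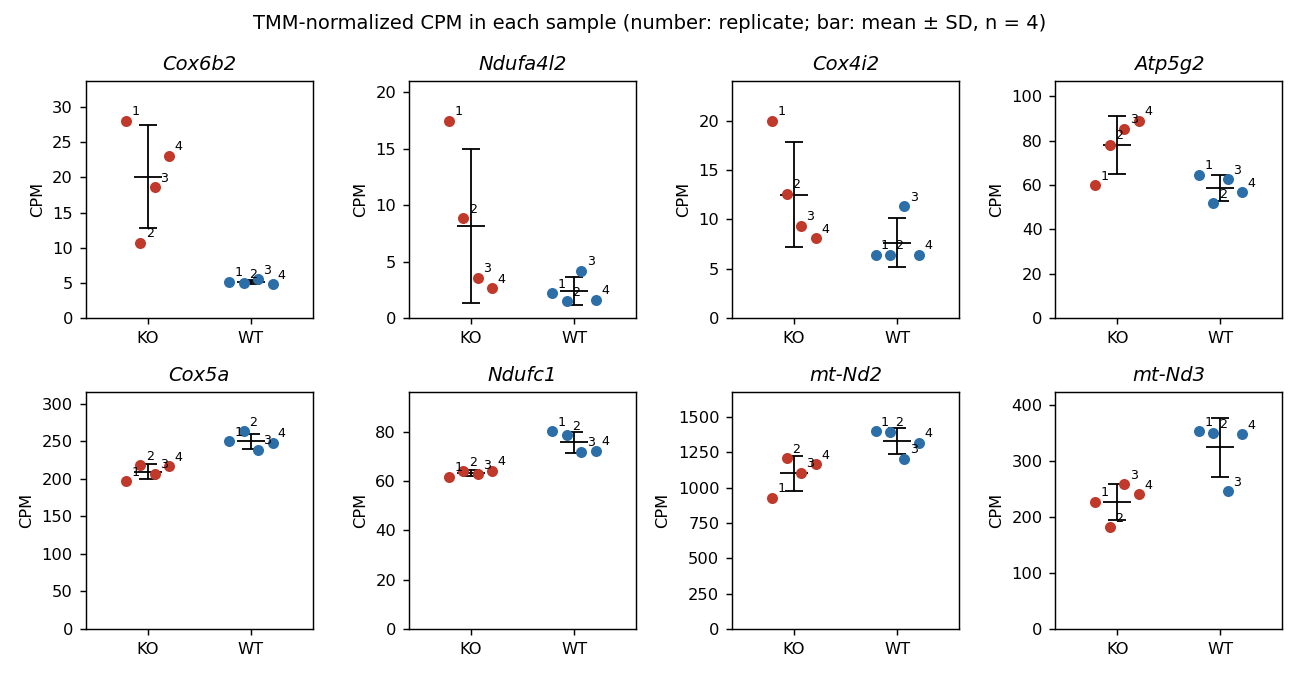
TMM-normalized CPM (y axes, from 0) of 8 subunit genes in each KO and WT sample, numbered by replicate, with the mean ± SD (n = 4). The groups do not overlap for *Cox6b2*, *Cox5a* and *Ndufc1*, whereas KO_1 is the highest sample for *Ndufa4l2* and *Cox4i2*.

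**Figure D3:**
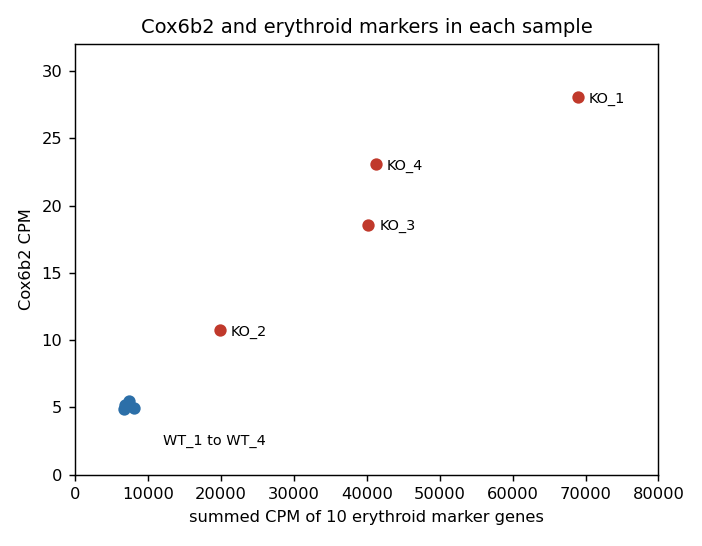
CPM of *Cox6b2* (y axis) against the summed CPM of 10 erythroid marker genes (x axis) in each sample. The 4 WT samples lie together near 5 CPM, and the KO samples run from KO_2 at 10.7 CPM to KO_1 at 28.1 CPM.

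The nuclear subunit genes *Cox5a* and *Ndufc1* were lower in KO. *Cox5a* encodes a subunit of cytochrome c oxidase on the matrix side (chr9:57521274-57532426, plus strand, GRCm38). Its level was 197, 218, 207 and 217 CPM in KO_1 to KO_4 and 250, 263, 239 and 248 CPM in WT_1 to WT_4. All KO samples were below all WT samples. The difference was -0.26 on the log2 scale (SE 0.055, adjusted p = 0.0208 by edgeR's test), and it was -0.23 without KO_1 (adjusted p = 0.00916). The call was lost without KO_3, WT_1, WT_2 or WT_4, with log2 fold changes of -0.25, -0.26, -0.23 and -0.26, and with the replicate number as a block (adjusted p = 0.0564).

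*Ndufc1* encodes a small accessory subunit of the membrane arm of complex I (chr3:51404677-51408988, minus strand). Its level was 61.8, 63.9, 62.9 and 64.2 CPM in KO and 80.2, 78.5, 71.9 and 72.3 CPM in WT. The KO samples lay within a narrow range below all WT samples. The log2 fold change was -0.26 (SE 0.057, adjusted p = 0.0226 by edgeR's test), and it was -0.25 without KO_1 (adjusted p = 0.0119). The call was lost without KO_3, KO_4, WT_1 or WT_2, with log2 fold changes of -0.26, -0.27, -0.23 and -0.24, and with the block (adjusted p = 0.0833). Its partner *Ndufc2* differed by -0.02 on the log2 scale (adjusted p = 0.870). The windows before the starts of the lower genes are given for comparison with the *Cox6b* pair (*Cox5a*, chr9:57520982-57521231 on the plus strand, and *Ndufc1*, chr3:51408956-51409205 on the minus strand, RefSeq, GRCm38.p6). Neither of these 250-base stretches held any of the 5 motifs searched, so they carry no capitals. The YY1 motif of *Ndufc1* reached into the 50 bases after its start, which are not printed.
Cox5a: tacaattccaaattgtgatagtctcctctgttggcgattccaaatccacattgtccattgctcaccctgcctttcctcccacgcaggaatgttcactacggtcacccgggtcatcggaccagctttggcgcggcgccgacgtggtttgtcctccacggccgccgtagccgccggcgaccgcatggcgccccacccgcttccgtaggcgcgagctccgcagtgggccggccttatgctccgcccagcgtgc
Ndufc1: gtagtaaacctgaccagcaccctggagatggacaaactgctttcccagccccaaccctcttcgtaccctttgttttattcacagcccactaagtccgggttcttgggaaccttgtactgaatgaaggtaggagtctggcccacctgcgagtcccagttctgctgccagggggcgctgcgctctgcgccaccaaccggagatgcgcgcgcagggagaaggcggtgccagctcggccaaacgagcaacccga

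RefSeq gave a promoter window of 300 bases, from 250 before to 50 after the start, for 67 of the 83 nuclear genes. Each motif was searched on both strands, and motifs may overlap. Some genes had more than 1 start, which gave 72 windows, and shares are of windows. The NRF1 motif was found in 18 of the 72 (25%), against 4.6% of 32851 promoters of the same length. CCGGAAG, bound by ETS factors such as GABPA, was in 16 (22.2% against 8.86%), and AANATGGCG, bound by YY1, was in 10 (13.9% against 2.38%). CCAAT was in 30 (41.7% against 37.4%), and GGGGCGG was in 20 (27.8% against 23.2%). Among the mRNAs of these factors, *Nrf1* differed by 0.16 on the log2 scale (adjusted p = 0.0985, and 0.0496 without KO_1), *Gabpa* by -0.02 (adjusted p = 0.903) and *Yy1* by 0.07 (adjusted p = 0.455), and none of the 3 passed edgeR's test over all 8 samples.

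Tissue-restricted isoforms were compared within their subunit. *Cox4i2* and *Ndufa4l2*, paralogs of *Cox4i1* and *Ndufa4* that are known to rise in hypoxia, had high values in single samples. *Ndufa4l2* (chr10:127514967-127517154, plus strand) was at 17.5, 8.83, 3.60 and 2.64 CPM in KO_1 to KO_4 and at 2.22, 1.5, 4.19 and 1.62 CPM in WT_1 to WT_4. KO_1 and KO_2 exceeded all WT samples, while KO_3 and KO_4 were below WT_3. On the log2 scale the fold change was 1.78 (SE 0.59), which did not pass edgeR's quasi-likelihood test (adjusted p = 0.0940). It was 1.10 without KO_1 (adjusted p = 0.123), and DESeq2 gave an adjusted p of 0.0135.

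*Cox4i2* (chr2:152754173-152765037, plus strand) was at 20.01, 12.6, 9.35 and 8.08 CPM in KO and at 6.42, 6.45, 11.3 and 6.42 CPM in WT. The groups overlapped through WT_3. Their log2 fold change was 0.71 (SE 0.30, adjusted p = 0.176), and it was 0.40 without KO_1 (adjusted p = 0.263). KO_1 and WT_3 were the highest samples of their groups for both genes and also for the hypoxia and stress sum. *Ldha* and *Slc2a1* were the largest parts of that sum, and the part of KO_1 and WT_3 in the result was not tested. *Cox4i2* was 2.80% ± 1.35 of subunit 4 per length in KO and 1.75% ± 0.57 in WT, and *Ndufa4l2* was 1.72% ± 1.54 of its pair in KO and 0.503% ± 0.290 in WT (SD, n = 4).

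The isoforms known from adult heart and skeletal muscle kept similar shares. *Cox6a2* was 16.8% ± 0.79 of subunit 6A per length in KO and 17.1% ± 0.71 in WT. *Cox7a1* was 20.1% ± 2.04 of the *Cox7a* genes in KO and 20.5% ± 0.89 in WT, beside *Cox7a2* at 51.0% and 49.7% and *Cox7a2l*, which encodes a factor of respiratory supercomplexes, at 28.9% and 29.7%. *Cox8b* was 0.997% ± 0.361 of subunit 8 in KO and 0.801% ± 0.237 in WT, and its counts of 16 to 32 per sample leave a 95% interval of the fold change from 0.732 to 1.94. No heart isoform passed edgeR's test over all 8 samples, with log2 fold changes of 0.21 for *Cox6a2* (adjusted p = 0.270), -0.06 for *Cox7a1* (adjusted p = 0.807) and 0.25 for *Cox8b* (adjusted p = 0.672). Without KO_1 *Cox6a2* passed, at 0.31 (adjusted p = 0.0161). The next values are again over all 8 samples. The ubiquitous *Cox7a2*, *Cox8a* and *Ndufa4* had log2 fold changes between -0.04 and 0.00.

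Subunit c of the ATP synthase is encoded by 3 genes whose mature proteins are the same. *Atp5g2* was at 59.9, 78.2, 85.4 and 89.1 CPM in KO_1 to KO_4 and at 64.6, 51.7, 62.5 and 56.7 CPM in WT_1 to WT_4. Only KO_1 lay within the WT range. The log2 fold change was 0.41 (SE 0.12, adjusted p = 0.0672), and without KO_1 it was 0.52 (adjusted p = 0.00218). *Atp5g2* was 12.5% ± 0.61 of the 3 genes per length in KO and 9.32% ± 1.10 in WT, *Atp5g1* was 25.8% and 26.9%, and *Atp5g3* was 61.8% and 63.8%. All 382 stretches of 60 bases of the *Atp5g2* transcript also occur in *Gm10175*, a transcribed processed pseudogene that was assigned 1516 to 2196 counts per sample, more than the 707 to 1187 of *Atp5g2*. With the counts of *Gm10175* and of a further pseudogene, *Gm10231* (0 counts in every sample), added to *Atp5g2* the log2 fold change was 0.21 (adjusted p = 0.0559), and how the reads were divided between the genes was not tested.

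Of the 13 mitochondrial mRNAs, 12 had a negative log2 fold change (*mt-Nd6* at 0.01 was the exception, and it turned to -0.0037 with upper-quartile factors and -0.00037 with limma-voom), with a median of -0.19, and 1 passed the test (*mt-Nd3*), against 8.62% of all genes. They share transcripts and libraries and are not independent of each other. The *mt-Nd* genes encode core subunits of the membrane arm of complex I. *mt-Nd1* was at 1916, 2843, 2778 and 2728 CPM in KO and 3190, 3334, 2566 and 2918 CPM in WT, with a log2 fold change of -0.23 (SE 0.13, adjusted p = 0.304). *mt-Nd2* was at 929, 1208, 1106 and 1166 CPM in KO and 1400, 1396, 1205 and 1318 CPM in WT, with a log2 fold change of -0.27 (SE 0.085, adjusted p = 0.0816). WT_3 was the only WT sample within the KO range of *mt-Nd2*. *mt-Nd4* and *mt-Nd4l* had log2 fold changes of -0.22 and -0.20. *mt-Nd5* and *mt-Nd6* had -0.01 and 0.01. *mt-Nd6* lies on the other strand than the rest of the mRNAs, and since no source gives a stranded count, its reads cannot be told apart from antisense reads.

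In complex IV, whose catalytic core the mitochondrial DNA encodes, the log2 fold changes were -0.02 for *mt-Co1*, -0.06 for *mt-Co2* and -0.04 for *mt-Co3*. *mt-Cytb*, the cytochrome b of complex III, was at -0.09. In complex V, *mt-Atp6* and *mt-Atp8*, which overlap on the mitochondrial DNA, were at -0.21 (adjusted p = 0.107) and -0.19 (adjusted p = 0.187). KO_1 had the lowest level of all 8 samples for 9 of the 13 genes, and WT_3 was the lowest WT sample for all 13. Without KO_1 the median over the 13 genes was -0.11, *mt-Nd1*, *mt-Nd4* and *mt-Nd4l* were at -0.11, -0.16 and -0.12, *mt-Nd5*, *mt-Nd6*, *mt-Co1*, *mt-Co3* and *mt-Cytb* had positive log2 fold changes (0.11, 0.12, 0.06, 0.006 and 0.03), and *mt-Nd2* passed at -0.20 (adjusted p = 0.0391).

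**Figure D4:**
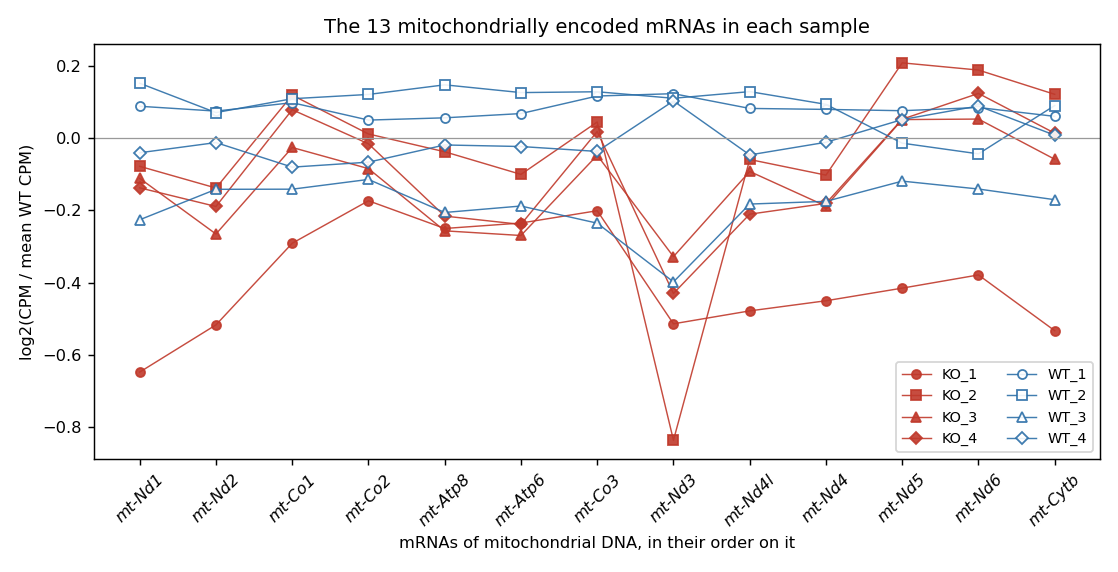
Log2 ratio of the CPM of each sample to the WT mean (y axis) for the 13 mitochondrially encoded mRNAs in their order on the mitochondrial DNA (x axis), KO filled and WT open. KO_1 lies lowest for most genes, from -0.65 for *mt-Nd1* to -0.17 for *mt-Co2*, and KO_2 drops to -0.84 at *mt-Nd3*.

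*mt-Nd3* (chrM:9459-9806, plus strand) was at 227, 182, 258 and 241 CPM in KO_1 to KO_4 and at 353, 350, 246 and 348 CPM in WT_1 to WT_4. All KO samples were below WT_1, WT_2 and WT_4, and WT_3 lay within the KO range. The log2 fold change was -0.52 (SE 0.13, adjusted p = 0.0433 by edgeR's test). It remained called without KO_1 (adjusted p = 0.0326) or WT_3 (adjusted p = 0.0180), and the call was lost without any of the other 6 samples and with the block (adjusted p = 0.109). Without KO_2 the log2 fold change was -0.41.

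The nuclear genome holds a near-identical copy, the pseudogene *Gm28438* (chr1:24612775-24613119, GRCm38). Over the 345 bases compared, 344 are identical, and the single substitution is T3C, counted from 1 at the first base of *mt-Nd3*. The first and the last 60 bases of *mt-Nd3* (chrM:9459-9518 and chrM:9747-9806) are shown because the annotated sequences differ only at these ends. The genome beyond the annotated copy was not compared. The capital in the first marks the substituted base, and the capitals in the last mark the 3 bases that the annotated copy lacks.
mt-Nd3 first 60 bases: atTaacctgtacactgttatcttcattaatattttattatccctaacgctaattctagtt
mt-Nd3 last 60 bases: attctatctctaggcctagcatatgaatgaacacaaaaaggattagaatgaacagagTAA
RSEM assigned 38, 2077, 659 and 783 counts to *Gm28438* in KO_1 to KO_4 and 610, 534, 1174 and 342 in WT_1 to WT_4. *mt-Nd3* therefore received 98.6%, 54.7%, 84.5% and 78.8% of the pooled counts in KO and 88.3%, 90.1%, 71.8% and 93.8% in WT. The lowest share was in KO_2, the KO sample with the lowest *mt-Nd3* level, and the lowest WT share was in WT_3. Pooled counts were 2714, 4584, 4247 and 3701 in KO and 5229, 5415, 4166 and 5489 in WT. With the counts pooled, the log2 fold change of *mt-Nd3* was -0.36 and no longer passed (adjusted p = 0.0633).

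**Figure D5:**
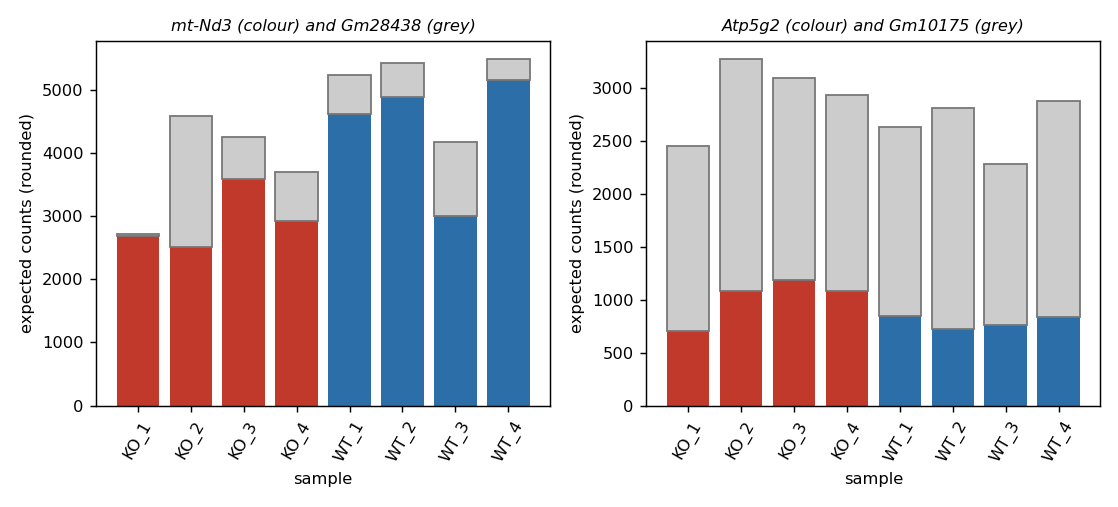
Rounded expected counts (y axes) of *mt-Nd3* with *Gm28438* and of *Atp5g2* with *Gm10175* in each sample (x axes), with the pseudogene in grey on top. The grey part of the *mt-Nd3* bars runs from 38 counts in KO_1 to 2077 in KO_2, and *Gm10175* takes more counts than *Atp5g2* in all 8 samples.

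Shared sequence was common in the set. Of the 96 genes, 51 shared at least 1 stretch of 60 bases with the transcripts of another gene, and 12 shared more than 50% of them, 6 mitochondrial and 6 nuclear. When 30 pseudogenes that held at least 10% of the stretches of 20 subunit genes were pooled with them, 3 of 96 genes passed, against 8.63% of the genes tested. All 331 stretches of *Ndufb4c* also occur in *Ndufb4*. *Ndufb4c* was assigned 442 to 760 counts per sample and *Ndufb4* 336 to 454. Both are among the 96 genes, so they were not pooled, and how reads were divided between them was not tested.

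As a share of all counts, the mitochondrial mRNAs took 2.47% ± 0.34 in KO and 2.80% ± 0.23 in WT, and the nuclear subunit genes took 1.75% ± 0.14 and 1.86% ± 0.054 (SD, n = 4). KO_1 was lowest in both shares, at 1.997% and 1.55%, below all WT samples. KO_3, at 1.75%, was also below all WT samples (1.78% to 1.91%) in the nuclear share, and KO_2 and KO_4 lay within that range. In the mitochondrial share KO_2, KO_3 and KO_4 lay within the WT range. Hemoglobin genes took 3.97% ± 1.77 of counts in KO and 0.722% ± 0.061 in WT. With hemoglobin genes left out of the total, the mitochondrial share was 2.57% in KO and 2.82% in WT, the nuclear share was 1.82% in KO and 1.87% in WT, and KO_3 (1.82%) lay within the WT range of the nuclear share (1.795% to 1.92%). The ratio of mitochondrial to nuclear subunit counts was 1.29, 1.51, 1.43 and 1.42 in KO and 1.58, 1.57, 1.40 and 1.49 in WT, with overlap between genotypes.

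Without KO_1, 14 of 96 subunit genes passed, against 17.2% of the 14630 genes then tested. Of these 14, *Cox6b2*, *Cox5a*, *Ndufc1* and *mt-Nd3* also passed with all 8 samples, and the other 10 did not. The 14 were 10 higher genes and 4 lower genes, of which the lower were *Cox5a*, *Ndufc1*, *mt-Nd2* and *mt-Nd3*. In complex IV, *Cox6a1* was higher by a log2 fold change of 0.32, *Cox6a2* by 0.31 and *Cox6b1* by 0.24, beside *Cox6b2*. In complex I, *Ndufs7*, an iron-sulfur core subunit, was higher by 0.33, *Ndufa13* by 0.28, *Ndufa1* by 0.23 and *Ndufa7* by 0.22. In complex V, *Atp5k*, the e subunit, was higher by 0.31, beside *Atp5g2*. Over all 8 samples the log2 fold changes of these genes were 0.24 for *Cox6a1*, 0.21 for *Cox6a2*, 0.15 for *Cox6b1*, 0.25 for *Ndufs7*, 0.20 for *Ndufa13*, 0.17 for *Ndufa1*, 0.19 for *Ndufa7* and 0.20 for *Atp5k*. *Ndufa7* was at 72.8, 81.5, 79.8 and 80.0 CPM in KO and at 68.0 to 70.4 CPM in WT, without overlap (adjusted p = 0.0639 over all samples). *Atp5k* was at 161, 230, 227 and 232 CPM in KO and at 180 to 191 CPM in WT, so that KO_1 lay below and the other KO samples above the WT range.

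The lists of genes around the complexes had medians between -0.07 and 0.02, and their counts of called genes stand beside 8.62% of all genes tested. Without KO_1 their medians lay between -0.08 and 0.05, and their counts stand beside 17.2% of the 14630 genes then tested. Of 18 electron carriers and their partners, 1 passed, and it was lower (median -0.05), while 2 passed without KO_1. *Cycs*, the cytochrome c that carries electrons from complex III to complex IV, was at 146, 171, 161 and 158 CPM in KO and 191, 196, 196 and 213 CPM in WT. All KO samples were below all WT samples, with a log2 fold change of -0.32 (SE 0.062, adjusted p = 0.0127 by edgeR's test). *Cyc1*, the cytochrome c1 of complex III, had a log2 fold change of 0.02. Of 43 assembly factors 1 was higher (*Ecsit*, a complex I assembly factor, 0.22, adjusted p = 0.0416), and the call was lost without any of 6 samples (KO_3, KO_4 or any WT sample), at 0.20 to 0.24. With KO_1 left out, 4 of the 43 passed, 3 higher and 1 lower. Of 10 genes of mitochondrial import and content 1 was lower (*Hspd1*, the chaperonin of the matrix, -0.19, adjusted p = 0.0337). With 1 sample left out at a time its log2 fold change stayed between -0.21 and -0.16, and it passed only without KO_1. In this list 3 of 10 genes had an unadjusted p under 0.05, against 3607 of 14451. KO and WT did not overlap for 4 of the 10, all lower in KO, against 1365 of 14451 genes lower without overlap.

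Of 78 genes of the mitochondrial ribosome, which translates the 13 mitochondrial mRNAs, 4 passed, against 8.62% of all genes tested. *Mrpl14* was higher by 0.35 (adjusted p = 0.0124), a call lost without WT_4 (adjusted p = 0.0516), and *Mrpl33*, *Mrpl49* and *Mrps6* were lower, with log2 fold changes of -0.27, -0.22 and -0.25. The median over the 78 genes was 0.02. Without KO_1, 12 of the 78 passed, 9 higher and 3 lower, against 17.2% of the 14630 genes then tested. Their median was then 0.05. Of 21 genes of mitochondrial DNA expression and its regulators 0 passed edgeR's test over all 8 samples (3 at an unadjusted p under 0.05, 0 with DESeq2 and 2 without KO_1). *Tfam*, which packages and transcribes the mitochondrial DNA, was at -0.15 on the log2 scale (adjusted p = 0.172), *Polrmt*, its RNA polymerase, 0.09, and *Ppargc1a*, a coactivator of mitochondrial genes, -0.07. Of 16 citrate cycle genes 0 passed edgeR's test over all 8 samples (4 at an unadjusted p under 0.05 and 2 with DESeq2), with a median of -0.05. Without KO_1, 4 of the 16 passed, 1 higher and 3 lower, with a median of -0.01. Over all genes tested, 3607 of 14451 had an unadjusted p under 0.05 and DESeq2 called 12.2%.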

How the data were processed

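Members and gene lists were chosen with earlier results of these data known. The authors deposited expected counts per gene, which RSEM 1.3.1 estimated after trimming with cutadapt on GRCm38, per the labels. RSEM divides reads that match several genes among them. The aligner and the use of strand are not given in the sources used here. These were rounded to integers and tested with edgeR 4.0.16 in R 4.3.3 (TMM, filterByExpr, quasi-likelihood test, Benjamini-Hochberg over all genes, FDR threshold 0.05), a method checked on simulated data. The SE is the log2 fold change over the square root of F. Totals of 11852372 to 14360323 counts set the precision. Per-length shares use 1 transcript per gene, picked by the annotation tags APPRIS principal and basic, then longest coding sequence, then shortest length. Stretches of 60 bases of that transcript were sought in the GENCODE M21 transcripts of other genes. Genes with no symbol (0.0188% to 0.0221% of counts) were tested but not named. Alternatives were RLE and upper-quartile factors, DESeq2 1.42.0, limma-voom 3.58.1, other filters, other library sizes, a replicate block, each sample left out and, chosen after seeing the data, counts pooled with pseudogenes. Genes named were called subunits, the 13 mitochondrial mRNAs, isoform pairs, the most counted nuclear gene of each complex, and the called gene with the largest change in each other list. Genes called only without KO_1, *Ndufc2*, *Ndufb4*, *Ndufb6*, *Atp5s*, *Cyc1*, *Mrpl33*, *Mrpl49*, *Mrps6*, *Ldha*, the regulators of mitochondrial genes, the genes of complexes II and III given as extremes and the called marker genes were named after their values were seen.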

Additional observations from a re-analysis of the deposited data

Results flagged for a closer look

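In groups of 4, a sample whose gap to its nearest neighbour exceeds 0.829 of the group's range was taken as far from the others. This was tested in 94 groups and met in 7, where chance gives about 1 in 20, or 4.7. KO_1 was the lowest KO sample for *mt-Nd1* (0.876), *Atp5g3* (0.958) and *Atp5k* (0.933). WT_3 was the lowest WT sample for *mt-Nd3* (0.954) and *Cox7a2* (0.843) and the highest for *Cox4i2* (0.994). WT_2 was the highest WT sample for *Atp5b* (0.862).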

How the results depend on the processing

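For 44 named genes, 373 of 396 values under settings that keep all samples kept their direction and their side of the threshold. *Cox6b2* passed under every setting run, with each sample left out and with the block. With the sample numbers as a replicate block, which the labels do not say pair the samples (correlations of same-numbered deviations from -0.0911 to 0.0187, and no sample closest to its own number), 616 of all genes passed, 398 higher and 218 lower. Of the subunit genes 1 passed in this blocked fit (1 nuclear and 0 mitochondrial, 0 lower). DESeq2 called 8 subunit genes, 4 of them higher, 6 nuclear (4 higher) and 2 mitochondrial (2 lower), while its calls over all genes were 1759 (12.2%) against 1245 (8.62%) with edgeR. Without a filter on low counts 3 were higher, and 5 nuclear genes passed (3 higher), with 1157 calls among 28458 genes (4.07%). With pooled counts 0 mitochondrial genes passed (0 lower). The cause of these changes was not tested.

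With 1 sample left out at a time, genes called ranged from 509 to 2523 (335 to 1368 higher, 174 to 1155 lower), subunit genes from 1 to 14 (1 to 10 higher, 0 to 4 lower), nuclear ones from 1 to 12 (1 to 10 higher, 0 to 2 lower) and mitochondrial ones from 0 to 2 (0 to 2 lower). The highest count came without KO_1. Subunit calls were 1 without KO_3, WT_1 or WT_2, 2 without KO_4 or WT_4, 3 without KO_2 and 4 without WT_3. Log2 fold changes near 0 turned sign, from -0.066 to 0.058 for *mt-Co1*, -0.11 to 0.0057 for *mt-Co3*, -0.079 to 0.11 for *mt-Nd5*, -0.042 to 0.12 for *mt-Nd6*, -0.16 to 0.027 for *mt-Cytb*, -0.15 to 0.053 for *Cox7a1*, -0.047 to 0.066 for *Cox7a2*, -0.071 to 0.0039 for *Cox8a*, -0.15 to 0.018 for *Atp5g1*, -0.10 to 0.020 for *Atp5g3*, -0.058 to 0.025 for *Ndufa4*, -0.053 to 0.035 for *Sdha* and -0.0021 to 0.049 for *Atp5b*. Among other settings *mt-Nd6* turned to -0.0037 with upper-quartile factors and -0.00037 with limma-voom, *Cox7a2* to 0.0022 with RLE factors, 0.0023 with DESeq2 and 0.0035 with library sizes without hemoglobin and *mt-* genes, and *Atp5b* to -0.0030 with upper-quartile factors. Depth limits *Cox8b*, at 16 to 32 counts, and *Ndufa4l2*, at 21 to 206.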
